A study of Drosophila melanogaster with 32 samples.

Results

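The genes tbrd-1, tbrd-2, tbrd-3 and fs(1)h encode bromodomain proteins of the BET kind in the fruit fly Drosophila melanogaster. They were chosen by name, matched by FlyBase symbol, and are 4 of the 17559 gene identifiers counted by RNA-seq. Bromodomains are protein pockets that bind acetylated lysines, chiefly on the tails of histones, and BET proteins use them to bring transcription machinery to acetylated chromatin. fs(1)h (female sterile (1) homeotic) is the broadly expressed BET gene of the fly. The tbrd genes (testis bromodomain) are known from the male germ line, where tBRD-1 and tBRD-2 act in spermatocytes together with testis-specific TBP-associated factors (TAFs).

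RNA-seq was made on whole testes in 4 groups of 2 libraries, each from 100 pairs of testes of males under 2 days old. The bam group was bam -/-, in which the germ line stays spermatogonial, grown at 22 C for 12 days without heat shock. The 48h and 72h groups were bam -/- flies that also carried a Bam transgene under a heat shock promoter. They grew at 22 C for 9 days, received 37 C for 30 min and were then kept at 25 C for 48 or 72 h, and their labels name young and mature spermatocytes as enriched. The aly group was aly -/-, labelled as enriched for mature spermatocytes and grown at 25 C for 10 days without heat shock. aly is a subunit of tMAC, the testis meiotic arrest complex that turns on spermatocyte genes. The bam, 48h and 72h groups thus share the bam -/- background and aly does not. Between aly and the other groups, the genotype differs together with growth temperature, growth time and, for 48h and 72h, the heat shock, and these cannot be told apart. Between bam and the 48h and 72h groups, the cell stage differs together with the transgene, the heat shock and the growth temperature. RNA-seq had no shocked group without the transgene, so these cannot be told apart either. ATAC-seq, in which a transposase cuts accessible DNA, covered 6 conditions with 1 peak list apiece, from 10 to 20 pairs of testes of males under 1 day old per technical replicate. These are the same 4 conditions, a heat shock control (bam -/- without the transgene, shocked in the same way and taken after 48 h) and topi -/-, which lacks another tMAC subunit and was grown like aly. A heat shock promoter is not limited to the germ line, and all samples hold the somatic cells of the testis as well.

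Library totals ranged from 20064489 to 28984275 counts. bam transcripts lay at 96.7 ± 2.57 CPM (normalised counts, scaled to library size after TMM; SD, n = 2) in bam and 96.6 ± 1.12 in aly, and aly transcripts at 70.8 ± 1.64 CPM in aly, so both mutated genes were still counted in their own mutants. Replicate libraries lay close together. The biological coefficient of variation estimated by edgeR was 2.11% for RNA-seq against 17.3% for the CAGE libraries of the same series. The labels do not say that replicates came from separate crosses, and the p-values measure this narrow spread only. With 2 libraries per group lying this close, groups without overlap say little by themselves about a gene. The share of all genes without overlap was not computed. The summed level of 4 early germ cell markers was 752 to 766 CPM in bam, 612 to 614 at 48h, 403 to 409 at 72h and 342 to 343 in aly. Its members differed: nanos and stg were highest in bam, chinmo was highest at 48h (525.1 CPM) and the bam gene was at like levels in bam and aly. The sum of 5 spermatocyte markers was 9.33 to 9.84 CPM in bam, rising to 1596 to 1607 (48h), 1126 to 1142 (72h) and 3861 to 3870 (aly). The spermatocyte marker sa had 0 counts in bam. Of the early germ cell markers listed, vas had no row that could be matched. Markers of other cells were present everywhere, muscle markers at 847 to 1743 CPM and hub and cyst markers at 116 to 282 CPM.

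tbrd-1 (FBgn0039124, chr3R:23891597-23893560, build dm6) was low in bam testes. Its values there were 5.61 and 5.42 CPM, from 119 and 126 counts. The 48h libraries had 469.3 and 458.4 CPM, the 72h libraries 457.2 and 446.3, and the aly libraries 1234 and 1236. bam was lowest and aly highest, each without overlap with another group. The 48h and 72h libraries lay next to each other, with a smaller gap between the groups than between replicates. The annotated gene overlaps the pseudogene CR46402 at its higher-coordinate end, and the strand setting of the counting is not known, so reads from that overlap cannot be assigned with certainty.

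tbrd-2 (FBgn0034423, chr2R:19259909-19262294) had 0 counts in both bam libraries, where 3 counts over the group would be 0.0674 CPM. It reached 415.2 and 412.4 CPM at 48h, from 12020 and 13232 counts. It lay at 470.1 and 465.6 CPM at 72h and at 1088 and 1068 CPM in aly. The 4 groups were separate, in the order bam, 48h, 72h and aly, although 48h and 72h changed places under other scalings. No other member lacked counts in any group.

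tbrd-3 (FBgn0050417, chr2R:23326739-23327581), the shortest of the genes, had the lowest counts of the tbrd genes outside bam. It had 25 and 17 counts in bam, or 1.18 and 0.731 CPM. The 48h libraries gave 46.4 and 43.6 CPM, those of 72h 37.5 and 40.9, and those of aly 72.6 and 72.7. The groups did not overlap, but the nearest libraries of 48h and 72h, at 43.6 and 40.9 CPM, were about as far apart as replicates. The annotation of tbrd-3 overlaps the end of CG9861 by a few bases, and CG9861 had a different course, with 14.4 CPM for bam, 116.6 for 48h, 307.7 for 72h and 30.97 for aly.

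fs(1)h (FBgn0004656, chrX:8037808-8061436) ran the other way. The bam libraries held 164.1 and 165.7 CPM, those of 48h 68.9 and 66.8, those of 72h 39.4 and 38.3, and those of aly 47.5 and 47.1. bam was highest and 72h lowest, and no groups overlapped. In bam, fs(1)h held 96.0% and 96.4% of the counts of the 4 genes together. Its share came to 6.90% and 6.81% in the 48h libraries, 3.92% and 3.86% in those of 72h, and 1.94% and 1.95% in those of aly.

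**Figure D1:**
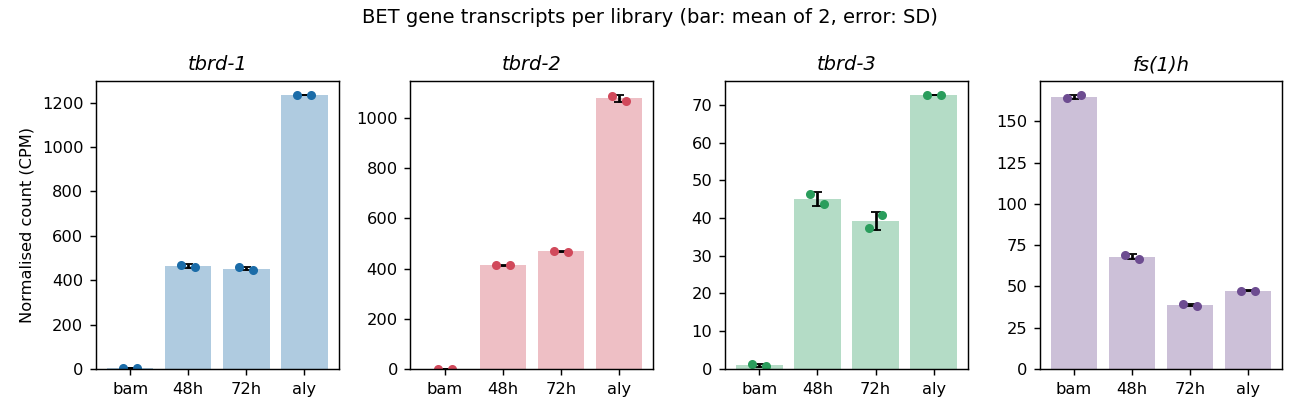
Normalised counts (CPM) of the 4 BET genes in each RNA-seq library (points), with the mean (bar) and SD (error bar) of 2 libraries per group; each panel has its own scale from 0. The tbrd genes are near or at 0 in bam and highest in aly (1235, 1078 and 72.7 CPM), and fs(1)h is highest in bam (164.9 CPM).

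Per kilobase of annotated gene span, tbrd-1 had the highest level of the 4 genes in the spermatocyte groups, at 236 ± 3.95 CPM per kb at 48h and 629 ± 0.494 in aly (SD, n = 2). tbrd-2 followed at 173 ± 0.822 and 452 ± 5.98, and tbrd-3 at 53.4 ± 2.28 and 86.2 ± 0.0277 CPM per kb. fs(1)h lay at 6.98 ± 0.0494 CPM per kb in bam and 2.00 ± 0.00984 in aly. The span includes introns, of which fs(1)h has long ones, so the level of fs(1)h on this scale is understated against the short tbrd genes.

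The first question of the design was how the 48h group, labelled as enriched for young spermatocytes, differs from the spermatogonial bam group. All 3 tbrd genes rose and fs(1)h fell. tbrd-1 was 84.2-fold higher at 48h than in bam, from 5.51 ± 0.135 to 463.9 ± 7.75 CPM (log2 6.40, SE 0.0382; edgeR quasi-likelihood test with Benjamini-Hochberg adjustment over 13495 genes, adjusted p = 1.81e-42). tbrd-3 was 47.2-fold higher, from 0.954 ± 0.316 to 45.0 ± 1.92 CPM (log2 5.57, SE 0.113; edgeR adjusted p = 9.35e-29). tbrd-2 was at least 6138-fold higher, set against a floor of 3 counts over the bam group (edgeR adjusted p = 7.49e-42). fs(1)h was 2.43-fold lower, from 164.9 ± 1.17 to 67.9 ± 1.52 CPM (log2 -1.28, SE 0.0302; edgeR adjusted p = 5.44e-27). In both libraries of each group the direction was the same. The median change of all genes was 0.06 here and 0.25 with library size alone. With the median of each fit taken off, fs(1)h lay between -1.35 and -1.26 over the 16 alternatives. A change of scaling nearly cancels in this range by construction.

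Calls in this comparison were common. Of all tested genes 44.1% were called higher and 41.8% lower, so a call alone says little about these genes, and their sizes say more: 30.2% of genes were called higher by 2-fold or more and 22.7% lower by 2-fold or more. A larger log2 change than that of tbrd-1 was fitted for 8.29% of genes, and than that of tbrd-3 for 11.6%. A more negative one than that of fs(1)h was fitted for 15.6%. In whole testes, a change in the number of cells of a type and a change in RNA per cell cannot be told apart. Of the 4 early germ cell markers 3 fell, nanos 7.39-fold, stg 7.53-fold and bam 3.29-fold, and chinmo rose 2.29-fold. Summed muscle markers fell from 1734 to 1743 to 847 to 856 and hemocyte markers from 1432 to 1482 to 641 to 659. Summed fat body markers fell from 623 to 641 to 144 to 146, and hub and cyst markers from 280 to 282 to 166 to 169. These sums moved in the same direction as fs(1)h, but not all their members did. Of 7 muscle markers sls was called higher and 6 were called lower. Of 7 hub and cyst markers upd1 and eya were called higher, 4 were called lower and zfh1 was not called. Summed spermatocyte markers rose from 9.33 to 9.84 CPM in bam to 1596 to 1607 at 48h, the direction of the tbrd genes. Summed accessory gland markers rose from 87.8 to 92.0 to 569 to 573. All 5 members of either list were called higher. The part of these markers in the fs(1)h and tbrd results was not tested.

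From 48h to 72h, as spermatocytes matured, fs(1)h was the BET gene that moved most. It fell 1.75-fold to 38.8 ± 0.772 CPM (log2 -0.81, SE 0.0392; edgeR adjusted p = 2.28e-18), and it fell under all 16 alternative settings, with log2 changes from -1.13 to -0.72. The fitted median change of all genes was 0.16 in this comparison. Against that median fs(1)h was lower by 0.97 on the log2 scale. Of all tested genes 34.3% were called lower and 7.51% lower by 2-fold or more, and 13% had a more negative change than fs(1)h.

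The tbrd genes changed little over this interval, and the signs of tbrd-1 and tbrd-2 depended on the processing. tbrd-3 stayed below 0 under all 16 alternatives, with log2 changes from -0.53 to -0.11, and was called in 13 of them. tbrd-1 had a log2 change of -0.04 (SE 0.0211; edgeR adjusted p = 0.0969), tbrd-2 one of 0.18 (SE 0.0211; edgeR adjusted p = 6.88e-09) and tbrd-3 one of -0.20 (SE 0.0526; edgeR adjusted p = 0.00115). With 45.9% of all genes called higher, 28.8% by 2-fold or more, the call of tbrd-2 was an ordinary one. With DESeq2 size factors tbrd-1 lay at 0.05 (edgeR adjusted p = 0.0226), and with library size alone tbrd-2 lay at -0.15 (edgeR adjusted p = 7.17e-08), both on the other side of 0. With the wider spread of the CAGE libraries, tbrd-2 and tbrd-3 were not called (edgeR adjusted p = 0.576 and 0.529).

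Another scaling moves all genes of a library alike, so a gene's distance from the median of all genes is nearly fixed under it by construction. With the median of all genes in the same fit taken off, tbrd-1 lay between -0.25 and -0.18 over the reported fit and the 16 alternatives, tbrd-2 between -0.04 and 0.03, tbrd-3 between -0.43 and -0.30, and fs(1)h between -1.02 and -0.94. tbrd-2 lay near the median gene and the others below it. The 4 genes listed as spermatid markers were S-Lap1, S-Lap7, Mst87F and Mst84Db. Their sum rose from 1945 to 1958 CPM at 48h to 9341 to 9411 at 72h, and that of accessory gland markers from 569 to 573 to 2173 to 2202. The labels name spermatocytes as enriched in both groups, so the list name does not show that spermatids were present. Both sets of markers add to the total against which every CPM is set, and their part in these differences was not tested.

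**Figure D2:**
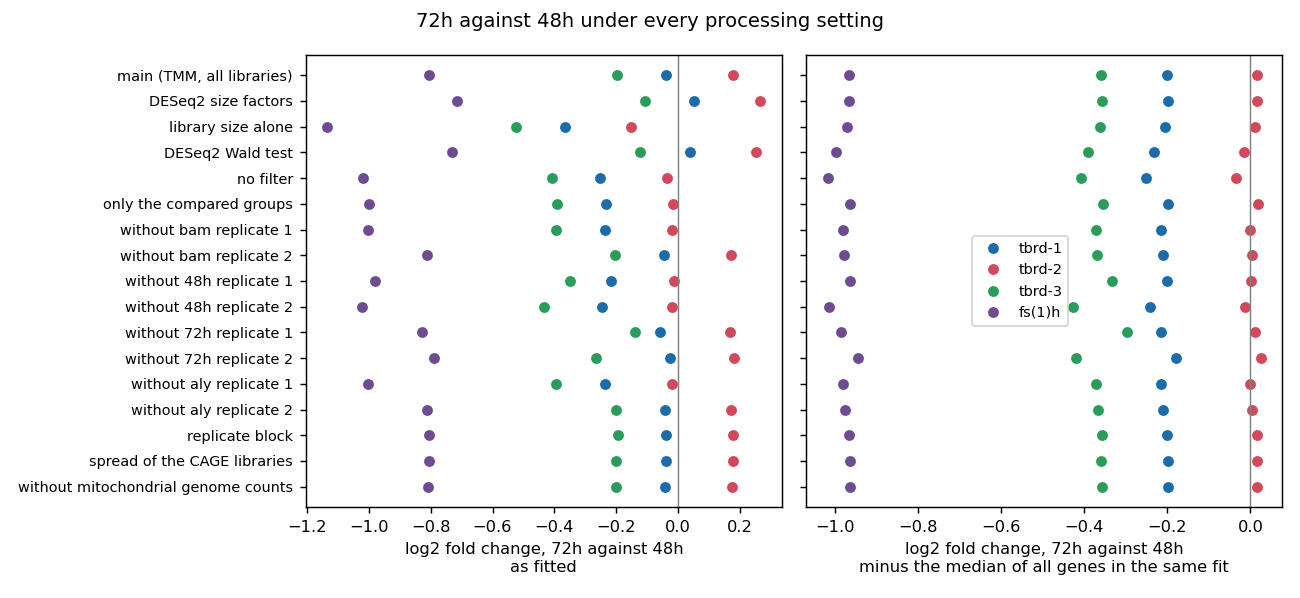
Log2 change of the 4 BET genes from 48h to 72h (x axis) under the reported fit and each of 16 alternatives (rows), as fitted on the left and with the median of all genes of the same fit taken off on the right. On the left tbrd-1 (-0.37 to 0.05) and tbrd-2 (-0.15 to 0.27) fall on both sides of 0; on the right, where a change of scaling cancels by construction, fs(1)h is lowest (-1.02 to -0.94).

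Ratios of counts within a library do not depend on any scaling and are given here. The 48h libraries had 1.13 and 1.11 counts of tbrd-1 per count of tbrd-2, the 72h libraries 0.973 and 0.959, and the aly libraries 1.13 and 1.16. The 72h libraries were below those of 48h and aly, and the balance between these 2 genes shifted by little among groups in which their levels moved over 2-fold. tbrd-3 lost ground to tbrd-1. Its ratio to tbrd-1 was 0.210 and 0.135 in bam, with 95% counting intervals from 0.131 to 0.325 and from 0.0762 to 0.225. At 48h it was 0.0988 and 0.0952, at 72h 0.0820 and 0.0916, and in both aly libraries 0.0588. The aly libraries lay below all others and the bam libraries above. The second bam library rested on 17 tbrd-3 counts, and its interval took in the 48h and 72h ratios.

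The ratio of the testis genes to fs(1)h changed by orders of magnitude. For tbrd-1 the bam libraries gave 0.0342 and 0.0327, the 48h libraries 6.81 and 6.86, the 72h libraries 11.6 and 11.7, and the aly libraries a mean of 26.1 ± 0.148 (SD, n = 2). The groups followed each other without overlap. For tbrd-2 the mean ratio was 6.10 ± 0.108 at 48h, 12.1 ± 0.156 at 72h and 22.8 ± 0.184 in aly, and for tbrd-3 it was 0.663 ± 0.0134, 1.01 ± 0.0815 and 1.54 ± 0.00778 (SD, n = 2). These are ratios of counts, not of molecules, since the transcripts differ in length.

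**Figure D3:**
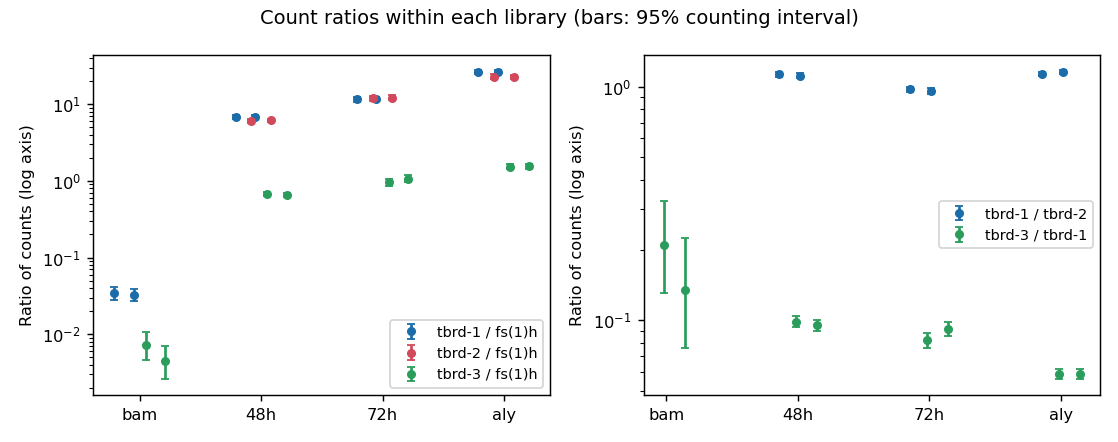
Ratios of the counts of 2 BET genes within each RNA-seq library, on log axes, with 95% counting intervals; ratios with tbrd-2 are not drawn in bam, where it had 0 counts. Left, each tbrd gene over fs(1)h rises from bam to aly (tbrd-1 from 0.033 to 26.1); right, tbrd-1 over tbrd-2 stays near 1 and tbrd-3 over tbrd-1 is lowest in aly (0.0588).

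Against bam, mature spermatocytes at 72h showed the same directions as at 48h, in a comparison that shares the bam libraries. tbrd-1 was 82.0-fold higher and tbrd-3 41.1-fold higher (edgeR adjusted p = 8.37e-43 and 9.54e-28), and tbrd-2 was at least 6940-fold higher. fs(1)h was 4.25-fold lower (log2 -2.09, SE 0.0358; edgeR adjusted p = 5.25e-31). In all, 46.1% of genes were called higher, 36.7% by at least 2-fold, and 43.6% lower, 27.9% by at least 2-fold. Of all genes, 5.48% had a more negative change than fs(1)h.

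The next comparison set aly mutants against the 72h group. These groups differ in genotype together with growth and heat shock, which cannot be told apart, so a need for aly was not tested. None of the BET genes fell in aly mutants relative to 72h, and all 4 were called higher. tbrd-1 rose 2.73-fold to 1235 ± 0.969 CPM (log2 1.45, SE 0.0210; edgeR adjusted p = 7.33e-33). tbrd-2 rose 2.31-fold to 1078 ± 14.3 CPM (log2 1.21, SE 0.0209; edgeR adjusted p = 5.44e-30), and tbrd-3 1.86-fold to 72.7 ± 0.0234 CPM (log2 0.89, SE 0.0512; edgeR adjusted p = 1.42e-16). fs(1)h was 1.22-fold higher, at 47.3 ± 0.232 against 38.8 ± 0.772 CPM (log2 0.29, SE 0.0437; edgeR adjusted p = 5.17e-07).

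Library size alone moved the median change of all genes in this comparison from -0.07 to 0.15. With the median of each fit taken off, fs(1)h lay 0.32 to 0.38 above it over the 16 alternatives and tbrd-1 1.49 to 1.55 above it. A change of scaling nearly cancels in these ranges by construction. The call of fs(1)h was lost with the spread of the CAGE libraries (edgeR adjusted p = 0.316). Over all genes 42.2% were called higher and 45.9% lower, while 22.1% rose and 33.6% fell by at least 2-fold. A larger change than that of tbrd-1 was fitted for 14.1% of genes, than that of tbrd-2 for 18.1% and than that of tbrd-3 for 24.7%. Spermatocyte markers rose as well, from 1126 to 1142 CPM at 72h to 3861 to 3870 in aly, while spermatid markers went from 9341 to 9411 CPM down to 1423 to 1433 and accessory gland markers from 2173 to 2202 down to 91.7 to 93.0. The part of these shifts in the tbrd result was not tested.

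Set against the 48h group, in a comparison that shares the aly libraries, the tbrd genes were higher in aly as well. The rise was 2.66-fold for tbrd-1, 2.61-fold for tbrd-2 and 1.62-fold for tbrd-3 (edgeR adjusted p = 2.90e-32, 3.32e-31 and 1.33e-14), where 39.8% of all genes were called higher, 15.7% by 2-fold or more. Summed spermatocyte markers were at 1596 to 1607 CPM at 48h against 3861 to 3870 in aly. Summed spermatid markers were at 1945 to 1958 against 1423 to 1433, and accessory gland markers at 569 to 573 against 91.7 to 93.0. Of the 4 spermatid markers S-Lap1 was higher in aly, at 1250 against 841.9 CPM, and 3 were lower. The part of these marker shifts in the tbrd result was not tested. fs(1)h was 1.43-fold lower in aly than at 48h (log2 -0.52, SE 0.0370; edgeR adjusted p = 4.42e-14), among 42.8% of genes called lower (24.5% by 2-fold or more), and this call too was lost with the spread of the CAGE libraries (edgeR adjusted p = 0.0693). aly thus lay between 48h and 72h for fs(1)h and above both for the tbrd genes.

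Against bam, aly testes had 224-fold more tbrd-1, at least 16000-fold more tbrd-2 and 76.2-fold more tbrd-3 (edgeR adjusted p = 6.61e-45, 4.05e-44 and 5.39e-31), with 41.7% of all genes called higher, 29.2% by 2-fold or more. For tbrd-1, 1.83% of genes had a larger change, and for tbrd-3, 4.04%. fs(1)h was 3.49-fold lower (log2 -1.80, SE 0.0340; edgeR adjusted p = 1.24e-29), with 40.5% of genes called lower, 25.3% by 2-fold or more.

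The ATAC-seq peak lists added a readout made on other testes. The table of gene positions gives no strand, so both ends of each gene were searched, 100 bp to either side, and an end is named by its coordinate. The fold enrichment and -log10 q of a peak are the authors' values. How the lists differ in depth and pooling is not known, so values from different lists stand side by side here and are not compared. The labels name 2 libraries each for bam and the control, 3 each for 48h and 72h, 6 for aly and 4 for topi. The lists of bam, the control, 48h, 72h, aly and topi hold 30062, 31173, 36412, 35547, 29559 and 38078 peaks. The part of these differences in the presence of a peak was not tested. All 3 tbrd genes had a peak at 1 of their ends at 48h, 72h, aly and topi and at neither end in bam and in the heat shock control. It was the higher-coordinate end of tbrd-1 and tbrd-3 and the lower-coordinate end of tbrd-2. At least 1 end with this course over the 6 lists was found in 202 of 17189 genes with a position, or 1.18%. Each end was judged alone here, so the other end could have a peak in any list. By the same rule, an end with gain at 48h and 72h over bam and the control, whatever aly and topi showed, occurred in 9.59% of genes. An end with gain at 48h and 72h and no peak in aly and topi occurred in 1005 genes, or 5.85%, and in none of the tbrd genes.

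At tbrd-1 the summit lay 39 bp outside the higher-coordinate end at 48h, 72h and aly and 44 bp outside it in topi. Fold enrichment there was 3.79 at 48h, 5.22 at 72h, 5.28 in aly and 3.00 in topi (-log10 q 87.9, 132.6, 97.7 and 30.5). A second peak, with its summit 504 bp outside the lower-coordinate end in 5 lists and 498 bp in the control, was present in all 6 lists. It lies beside TfIIA-S, whose annotated end is 537 bp from that of tbrd-1 and whose transcripts lay at 152.2 CPM in bam.

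At tbrd-2 the summit was at the gene end itself, 1 bp inside it at 48h, 2 bp inside at 72h and 6 bp outside in aly. Its fold enrichment was 3.44 at 48h, 8.61 at 72h and 8.38 in aly. The topi peak was small, 100 bp long with a fold enrichment of 2.11 and a -log10 q of 7.11, and its summit lay 86 bp outside the end. A limit of 10 on -log10 q removed it and kept the other 3. At 72h the tbrd-2 peak ranked within the top 4.96% of its list by fold enrichment and in aly within the top 6.49%, and in topi at 70.2%. No nucleosome position was listed within 500 bp of either end of tbrd-2 in bam or in the control. The peak lists of these conditions also held no peak in tbrd-2 or within 500 bp of it. Reads are given only for listed positions, so an absence of nucleosomes cannot be read from this.

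At tbrd-3 the summit lay 88 bp outside the higher-coordinate end at 48h and in aly, 42 bp at 72h and 90 bp in topi. Fold enrichment was 5.40 at 48h, 5.37 at 72h, 7.13 in aly and 2.86 in topi. The gene also held a weaker internal peak, 334 to 340 bp inside that end, in the 48h, 72h and aly lists, with fold enrichment from 2.73 to 3.62.

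**Figure D4:**
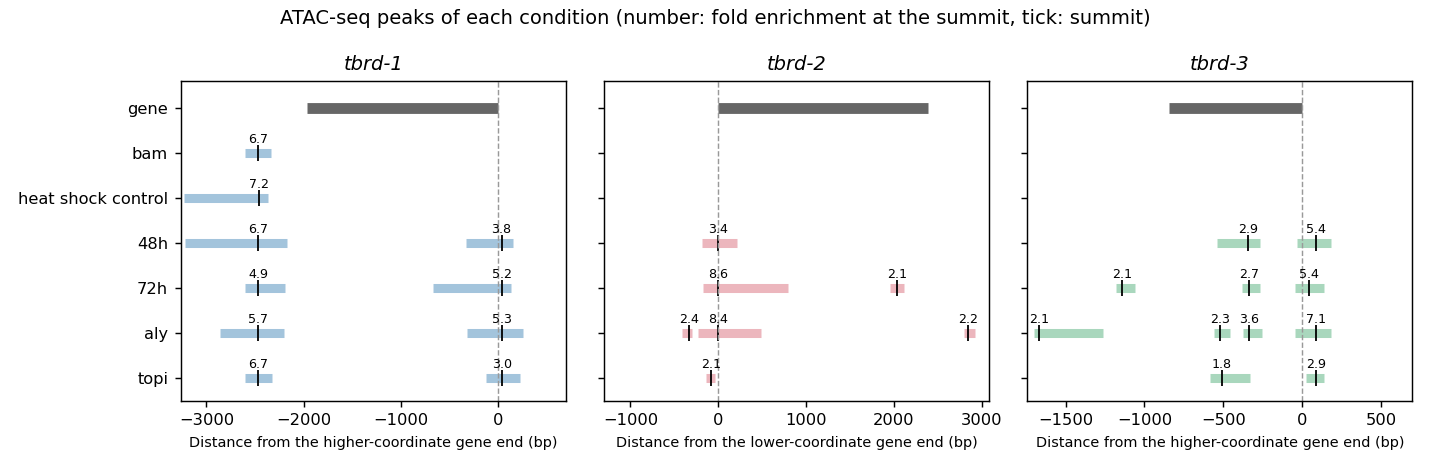
ATAC-seq peaks (bars), their summits (ticks) and the authors' fold enrichment at each summit (numbers) around the tbrd genes, 1 row per condition, by distance in bp from the gene end that carries the peak; the grey bar is the annotated gene. Peaks at distance 0 are in the 48h, 72h, aly and topi rows and absent from the bam and heat shock control rows, while the peak at the left of the tbrd-1 panel is in all 6.

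fs(1)h was marked in every condition. Its higher-coordinate end had a peak reaching within 100 bp in all 6 lists, but no summit lay within 100 bp of that end. The gene held 10 to 14 peaks in each list. The strongest, 339 to 358 bp inside that end, had a fold enrichment between 5.51 and 6.16 in the 6 lists. The neighbouring gene mys begins or ends 209 bp beyond, inside the span of the end peaks. Over the 8 member gene ends, a peak was present at 1 in bam (all gene ends 30.2%), 1 in the control (31.1%), and 4 each at 48h (37.6%), 72h (39.9%), aly (32.2%) and topi (31.9%).

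Deposited nucleosome positions stood at different distances from the summits of the tbrd genes. At 48h a position was listed 14 bp from the lower-coordinate end of tbrd-2 (occupancy 0.690, 30 reads), where the summit was 1 bp from that end, and at tbrd-3 positions were listed 66 bp inside (occupancy 0.558, 11 reads) and 213 bp outside the end (0.908, 20 reads), with the summit between them. At the higher-coordinate end of tbrd-1, in the 48h, 72h and aly lists the nearest positions were 160, 141 and 143 bp inside the end and 179, 189 and 169 bp outside it, with occupancy fractions from 0.589 to 0.840, each resting on 22 to 110 reads. The ATAC summit thus lay between them. In topi the inner position was 25 bp inside the end, with an occupancy of 0.639 (interval 0.511 to 0.751, 48 reads), and the outer 150 bp outside. In bam the positions rested on 3 and 4 reads, and the control listed none at this end, so no spacing can be read there.

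Among the genes whose course over the 4 RNA-seq groups was most like that of a member, compared by the root mean square difference of centred log2(CPM + 0.5) over 9250 genes, tbrd-1 was closest to CG14930 (0.151), Rpn12R (0.232), a testis form of a proteasome subunit, and CG7691 (0.246). tbrd-2 was closest to CG7907 (0.202), the only gene within 0.5 of it, followed by CG3927 (0.571) and sa (0.593), a testis-specific TAF. tbrd-3 was closest to CG32700 (0.0859), CG13074 (0.209) and LS2 (0.221), a splicing factor of the testis. CG32700 lay at 0.661, 33.2, 27.7 and 48.2 CPM in bam, 48h, 72h and aly. The course of fs(1)h was a common one, with 1926 genes within 0.5 of it, nearest rgn (0.0206), Arc1 (0.0266) and Rala (0.0341). Among the members, tbrd-1 and tbrd-3 were 0.737 apart and tbrd-1 and tbrd-2 1.51 apart, and on this scale the distance from tbrd-2 depends on the pseudocount, since it had 0 counts in bam. Each distance rests on 4 group means and carries no test.

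Most of the other bromodomain genes fell at 48h, as fs(1)h did. Of 15 such genes 12 were lower and 3 higher at 48h than in bam, 6 of them lower and 0 higher by 2-fold or more, with a median log2 change of -0.90 against 0.06 over all tested genes. Of all genes 41.8% were called lower and 44.1% higher, and 22.7% and 30.2% by 2-fold or more. The summed muscle, hemocyte and fat body markers given above fell in the same comparison, and their part in this fall was not tested. tou, which encodes a subunit of a nucleosome remodeler, fell 4.30-fold to 69.9 CPM, and Acf, the partner of the ISWI remodeler, fell 2.55-fold to 131.9 CPM. dikar and Brd7-9 fell 2.40- and 2.14-fold. Against 72h, aly had 10 of the 15 higher and 5 lower, 7 higher by 2-fold or more, with a median of 0.89 against -0.07 over all genes, of which 42.2% were called higher, 22.1% by 2-fold or more, and 45.9% lower. Taf1, the largest subunit of TFIID, was 5.09-fold higher at 548.7 CPM, Brd7-9 4.94-fold, polybromo, a subunit of a SWI/SNF remodeler, 3.69-fold and nej, the fly CBP acetyltransferase, 3.55-fold. In bam these 4 genes lay at 133.6, 229.5, 301.0 and 298.1 CPM, where the tbrd genes were at or near 0.

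Enzymes that set or remove the acetyl groups bound by bromodomains made up the next list. Of 13 tested genes 5 were higher and 8 lower at 48h than in bam, where 44.1% and 41.8% of all genes were called so, and the median log2 change was -0.50. Changes of 2-fold or more numbered 2 upward and 5 downward. The latter number was 2 in the fits without the first bam, either 48h or the first aly library. HDAC1, a histone deacetylase, fell 5.99-fold to 36.8 CPM, and Sirt2, an NAD-dependent deacetylase, rose 4.12-fold to 122.3 CPM. The acetyltransferase gene enok fell 2.32-fold and Sirt1 2.21-fold. In aly against 72h 11 were higher and 2 lower (42.2% and 45.9% of all genes), with Taf1 and nej as above, the acetyltransferase gene chm 3.16-fold higher and enok 2.92-fold lower. HDAC3, the other listed member, had 0 counts in all 8 libraries and was not tested.

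BET proteins are known to work with P-TEFb, the kinase that releases paused RNA polymerase II. Of 16 genes of P-TEFb and associated elongation factors, 8 were higher, 5 lower and 3 not called at 48h against bam, close to the 44.1% and 41.8% of all genes called higher and lower, with a median log2 change of 0.06, as over all genes. Rises and falls of 2-fold or more numbered 2 each. The number of rises was 4 in the fits without the first bam, first 48h or first aly library. Spt6, a histone chaperone of elongation, fell 3.67-fold, and bin3, which is related to the 7SK capping enzyme, 2.98-fold. lilli, a scaffold of the super elongation complex, rose 2.16-fold and Nelf-E, a pausing factor subunit, 2.18-fold. In aly against 72h 10 were higher and 4 lower (42.2% and 45.9% of all genes). Nelf-A was 8.03-fold higher, Spt5 4.64-fold and Cdk9, the kinase of P-TEFb, 3.56-fold, while lilli was 2.34-fold lower.

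The tMAC and testis TAF genes rose at 48h as the tbrd genes did. All 13 were higher at 48h than in bam (44.1% of all genes), 12 of them by 2-fold or more (30.2%), with a median log2 change of 3.69, which was the same when the 2 genes with 0 counts in bam stood at their lower bound. wuc rose 263-fold, can, a testis TAF, 322-fold, topi 42.3-fold and sa at least 2619-fold from 0 counts. In aly against 72h 11 were higher and 2 lower (42.2% and 45.9% of all genes), with a median of 1.21. Here topi was 6.87-fold higher, can 4.93-fold, achi 4.07-fold and sa 3.73-fold. can, sa and topi are also among the spermatocyte markers above, so the list and the markers do not stand apart.

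**Figure D5:**
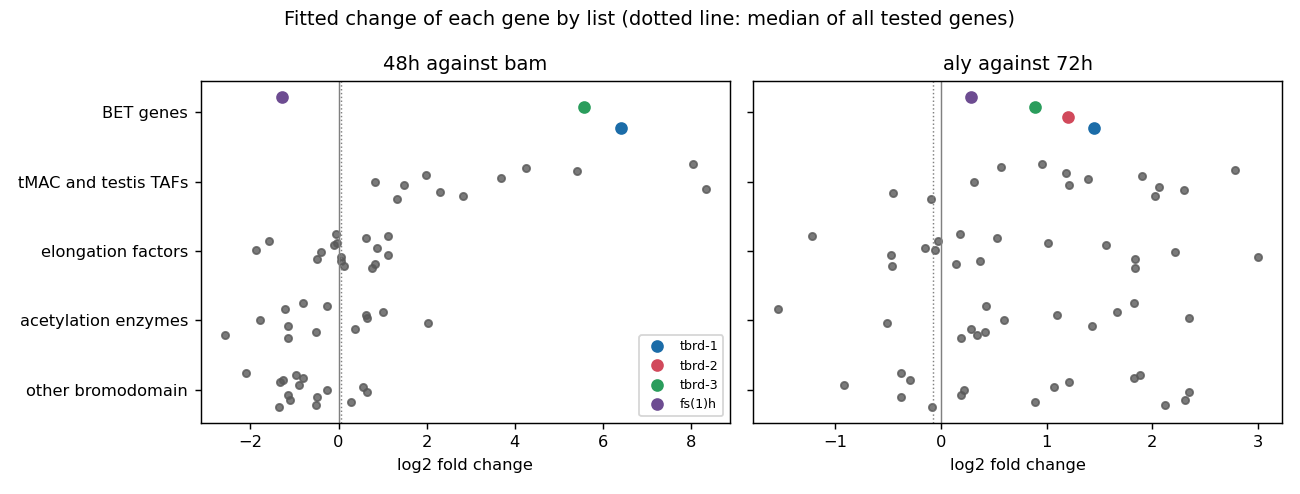
Fitted log2 fold change of the BET genes (coloured) and of the genes of 4 lists (grey points) in 48h against bam and in aly against 72h; the dotted line is the median of all tested genes (0.06 and -0.07). tbrd-2, sa and comr, which had 0 counts in bam, are left out of the left panel, where tbrd-1 and tbrd-3 lie among the highest tMAC and testis TAF genes and fs(1)h among the other bromodomain genes.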

How the data were processed

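RNA-seq, ATAC-seq and CAGE were made on testes. The deposited RNA-seq and CAGE tables hold raw counts per gene or cluster from the authors; per the submitters' processing notes the build was dm6, and MACS2 2.1.1, STAR 2.5.4b and BWA 0.7.10 were among the tools. For the counting tool and strand setting, nothing is given in the sources used here. In the authors' peak lists each peak has a fold ratio, a -log10 q-value and a score, 1 list per condition, and the deposited nucleosome lists an occupancy fraction with its bounds and reads. Pooling of replicates is not stated there.

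Groups followed the labels. edgeR 4.0.16 in R 4.3.3 (filterByExpr, TMM, quasi-likelihood F test, all 8 RNA-seq libraries) was tested on simulated data first, and a call needed an adjusted p (Benjamini-Hochberg) under 0.05. Folds are ratios of mean CPM, and a floor of 3 counts over the group gave lower bounds. Depth ranged from 20064489 to 28984275 counts, and intervals and floors cover counting error only. Gene names and positions came from the RefSeq table of Release 6, which named 17252 of 17559 identifiers and placed 17215. Named list genes were those past 2-fold in 48h against bam or aly against 72h, at most 4 by smallest p in each; 3 genes per member were named by likeness. CAGE clusters carry numbers without positions, so they could not be read at the genes, and only their spread was used. Alternatives are DESeq2 1.42.0, other scalings, no filter, left-out libraries, a replicate block and other peak windows. The genes and lists were chosen with earlier results of these data known. No sequences are shown.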

Additional observations from a re-analysis of the deposited data

How the results depend on the processing

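Of 856 values recomputed under alternatives for 58 results, 808 kept their side of the threshold, and their direction where called, or stayed within 1.5 times the reported count. A change of sign with no call in either fit was counted as kept. This was so for tbrd-1 from 48h to 72h with the DESeq2 Wald test (0.037, DESeq2 adjusted p = 0.167). Most of the rest concerned 72h against 48h, and the cause was not tested. tbrd-1 (-0.04, not called) became called at -0.37 with library size alone, -0.25 with no filter and -0.23 with only the compared groups, and reversed at 0.051 with DESeq2 size factors; leaving out 1 library gave -0.247 to -0.026, called except without the other 72h or the other aly library. tbrd-2 (0.18) reversed at -0.15 with library size alone, -0.035 with no filter and -0.016 with only the compared groups, and leaving out 1 library gave -0.021 to 0.179, negative without the first bam (-0.021), the first (-0.015) or other 48h (-0.019) or the first aly library (-0.021); with the spread of the CAGE libraries it kept 0.18, not called. tbrd-3 (-0.20) lost its call at -0.11 with DESeq2 size factors, -0.12 with the DESeq2 Wald test and -0.20 with the spread of the CAGE libraries. That spread also ended the calls of fs(1)h in aly against 72h (0.28, adjusted p = 0.316, edgeR) and against 48h (-0.52, adjusted p = 0.0693, edgeR). Genes lower by 2-fold or more from 48h to 72h numbered 1013, but 2209 with library size alone, 1770 with no filter, 1621 with only the compared groups and 1030 to 1699 with 1 library left out. At 48h against bam, acetylation enzymes lower by 2-fold or more numbered 5, but 3 with library size alone, 2 with no filter and 2 to 5 with 1 library left out; elongation factors higher by 2-fold or more numbered 2, but 4 with library size alone or no filter and 2 to 4 with 1 library left out. Elongation factors lower by 2-fold or more in aly against 72h went from 1 to 0 with library size alone. With windows of 500 bp, member gene ends with a peak went from 1 to 2 in bam and in the control. They went from 4 to 8 at 72h and from 4 to 7 in aly. With the summit required inside the window, the fs(1)h end lost its peak in all 6 lists, which left 0 in bam and in the control. Replicate numbers were shared between groups (deviations correlated at 0.112 to 0.281), but no label ties them to a shared batch and there were 2 per group; with the replicate block no call of a member changed (tbrd-1 6.40 and fs(1)h -1.28 at 48h against bam; tbrd-2 1.20 and tbrd-3 0.89 in aly against 72h). Leaving out the mitochondrial genome counts, an alternative chosen after seeing the data, changed no call of a member. The planned CAGE comparison and its alternatives were not run, since clusters carry no position. The 42 bam counts of tbrd-3 limit its folds against bam, which ranged from log2 5.25 to 6.15 at 48h.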
